A study of Mus musculus with 30 samples.

Results

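The comparison set 3 aortas of uMT mice against 3 aortas of wild type (WT) mice, all taken 7 days after CaCl2 was laid around the abdominal aorta. These 6 arrays, out of 30 in the series, were chosen by their titles, and every probe on them that is not a control spot was considered. The uMT animals are described as lacking B cells, and both genotypes carry the strain label C57BL/6 with no substrain. By their labels both groups received 0.5 M CaCl2, and saline took its place in the sham animals that appear below as a further comparison. Total RNA of the aorta was hybridised in 1 colour to Agilent mouse arrays, 1 array per sample. The labels call the tissue of every sample an abdominal aortic aneurysm, sham and unoperated samples included. No label says whether a sample pooled animals, so the p values measure the spread between these samples only.

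The uMT allele disrupts the part of the mu heavy chain gene that encodes the membrane anchor of IgM, and B cell development then stops before a B cell receptor is displayed. Antibodies are built of heavy chains and of kappa or lambda light chains, and the J chain joins IgM and IgA into multimers. Calcium chloride around an artery injures the wall, after which leukocytes enter, smooth muscle cells lose contractile proteins and elastic fibres break down. Fc receptors bind antibody and signal through the kinase Syk, which the title of the series names beside B cells and immunoglobulins.

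A level below is the log2 signal of a gene minus the 75th percentile of its array, and a difference is the uMT mean minus the WT mean in log2 units, ± its standard error, from 3 arrays per group. A gene was called when its Benjamini-Hochberg adjusted p from limma was under 0.05 over 23266 gene names. The standard error pools the spread within all groups of the series. Between 50.3% and 53.3% of probes were well above background on the uMT arrays, against 58.4% to 61.8% on the WT arrays. The 75th percentile of signal was 166 to 251 intensity units on the uMT arrays and 274 to 418 on the WT arrays, and no spot was saturated. The aorta markers named for this check were present in both groups: Myh11 and Acta2 of smooth muscle, Pecam1 and Cdh5 of endothelium, and Pdgfra and Dpt of adventitial fibroblasts. All 3 uMT arrays lay on 1 slide and all 3 WT arrays on another, so slide and genotype cannot be told apart here.

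The 3 uMT aortas did not resemble each other as the 3 WT aortas did. Across genes, the WT arrays correlated with each other at r = 0.986 to 0.991. Among the uMT arrays the correlations were 0.956 between replicates 1 and 2, 0.945 between 1 and 3, and 0.973 between 2 and 3. Replicate 1 of uMT correlated at 0.982 with the mean of the WT CaCl2 arrays and at 0.938 with the mean of the uMT sham arrays of day 7. Replicate 2 ran the other way, with 0.968 for WT CaCl2 and 0.982 for uMT sham, as did replicate 3, with 0.950 and 0.965. With the mean of the uMT CaCl2 arrays of day 42 replicate 2 correlated at 0.953 and replicate 3 at 0.964. Of 36 gene lists for cell types and pathways, the mean level in uMT replicate 1 lay nearer to the WT CaCl2 arrays than to the day 7 sham arrays in 25, against 8 in replicate 2 and 7 in replicate 3. Collagens, mast cells, resident adventitial macrophages, elastic fibre and crosslinking genes and mitochondrial respiratory chain genes were nearer to WT CaCl2 in all 3 replicates. Collagens in replicates 2 and 3 differed by 0.88 and 0.89 from the sham mean, and by -0.05 and -0.04 from the WT CaCl2 mean. For mast cell genes these values were -1.34 and -1.93 from sham, and 0.54 and -0.05 from WT CaCl2. The samples are grouped by their labels, and nothing measured here settles whether uMT replicates 2 and 3 were exposed to CaCl2 as labelled. For most gene lists counted below, the counts are given with and without uMT replicate 1. The focus on replicate 1 came from these same values, and leaving out the uMT array nearest to WT tends to widen a difference. Calls and adjusted p values without it are therefore not independent support for a difference.

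The number of differing genes was small and depended on which arrays estimated the spread. The fit called 460 genes (1.98%), of which 145 (0.623%) were higher in uMT and 315 (1.35%) were lower. The median difference of all genes was -0.03. Among the calls, 71 genes were higher and 248 were lower by at least 1 log2 unit, and in 438 the 3 uMT arrays and the 3 WT arrays did not overlap. The arrays of the groups did not overlap in 23.0% of all genes, 9.83% higher and 13.1% lower in uMT. A fit to the 6 compared arrays alone called 6 genes, 0 higher and 6 lower. The 460 calls came from a fit that left out 1 poor WT sham array of day 42, and the same fit with that array included made 51 calls, 17 higher and 34 lower. Without uMT replicate 1 there were 3672 calls among the 23266 gene names, 1579 higher and 2093 lower. The list counts given below without that replicate are to be read beside these totals, since many more genes were called in that fit. Leaving out WT replicate 2 gave 28 calls and leaving out WT replicate 3 gave 12.

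**Figure D1:**
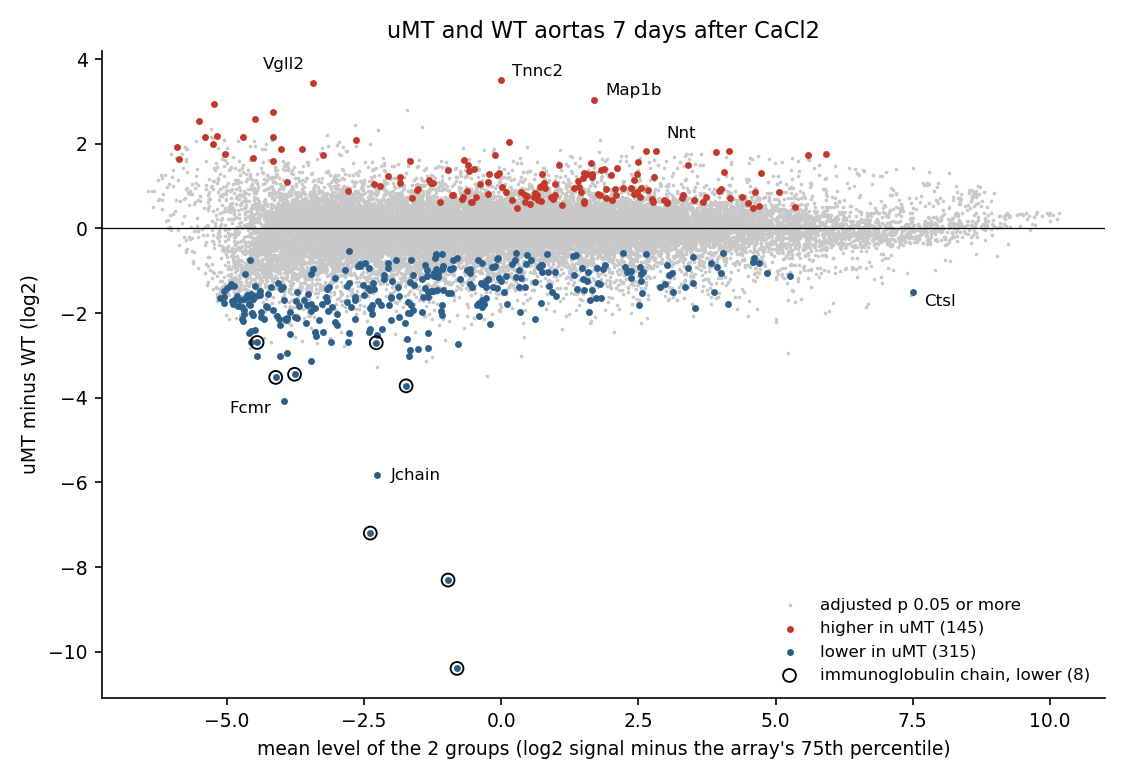
Each point is 1 gene, with the mean level of both groups on the x axis (log2 signal minus the array's 75th percentile) and uMT minus WT on the y axis (log2). The 145 genes higher in uMT are red, the 315 lower are blue, and rings mark the 8 lower features described as immunoglobulin chains, 3 of which lie below every other gene. For genes not above background in uMT the plotted fall uses the scanner's value for dim spots.

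The deepest falls belonged to antibody transcripts. The 5 array oligos with the largest fall among features described as immunoglobulin chains are shown because they carry this result. Each has 60 bases, read from 5′ to 3′, with mm9 coordinates from the deposited files. Capitals in the kappa oligo mark the stop codon that ends its open frame.
Heavy chain J558 family oligo 1 (chr12:114496985-114497044, minus strand): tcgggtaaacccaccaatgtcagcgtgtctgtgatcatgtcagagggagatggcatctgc
Heavy chain J558 family oligo 2 (chr12:114497090-114497149, minus strand): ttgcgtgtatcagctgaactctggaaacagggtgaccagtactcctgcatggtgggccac
Kappa constant oligo (chr6:70676692-70676751, plus strand): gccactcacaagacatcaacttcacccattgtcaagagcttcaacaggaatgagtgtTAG
Lambda constant 3 oligo (chr16:19065462-19065521, minus strand): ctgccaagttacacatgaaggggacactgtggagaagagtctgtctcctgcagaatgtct
Lambda variable 1 oligo (chr16:19085111-19085170, minus strand): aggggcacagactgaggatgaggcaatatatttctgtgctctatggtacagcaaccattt
The heavy chain oligos lie 45 bases apart on chromosome 12, and the files describe both as predicted transcripts of the J558 family, a family of variable segments, without naming an antibody class. Their positions lie beside the features described as the gamma 1 (start 114567263) and mu (start 114659630) constant regions, and below all features described as heavy variable segments. Whether they read a constant region was not resolved. The J558 name is kept as the files give it and does not show that variable segments were what fell.

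The first heavy chain oligo read -5.87, -6.38 and -5.76 on the uMT arrays, against 4.23, 3.93 and 5.01 on the WT arrays. It stood far above the 75th percentile of every WT array and was not well above background on any uMT array. The level was at least 291-fold lower in uMT (adjusted p = 0.00307, limma), where "at least" marks a bound set against the lowest signal above background on each uMT array. The second heavy chain oligo read -5.62, -5.55 and -4.18 in uMT, against 2.97, 2.71 and 3.88 in WT, and was at least 126-fold lower (adjusted p = 0.00899). In both, every WT array stood far above every uMT array.

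The kappa constant oligo read -6.08, -6.22 and -5.65 in uMT and 1.03, 0.67 and 1.94 in WT. It fell at least 32.1-fold (adjusted p = 0.00561), and no uMT array was above background. The lambda constant 3 oligo read -2.86, -4.28 and -3.63 in uMT and -0.76, -0.13 and 1.27 in WT, a difference of -3.72 ± 0.76 (adjusted p = 0.0185). Lambda variable 1 read -5.94, -6.13 and -5.53 in uMT, against -2.68, -3.18 and -1.19 in WT, and was at least 2.72-fold lower (adjusted p = 0.0163). WT replicate 3 was the highest WT array for all 5 oligos.

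Of 71 features described as immunoglobulin chains, 0 were higher and 8 were lower by the adjusted p, and their median difference was -0.95. In 32 features every uMT array lay below every WT array, and in 1 every uMT array lay above. Of the 71, 38 were above background on all 3 WT arrays and 53 on no uMT array, with 20 in both sets. The feature described as the mu constant region, the gene that the uMT allele disrupts, stayed above background on all 6 arrays. It read -1.55, -0.89 and -1.08 in uMT and -0.12, -0.62 and -0.50 in WT, a difference of -0.76 ± 0.52 that did not pass (adjusted p = 0.426). The files do not say which exon this oligo covers, so it does not check the genotype label. The 6 calls in the 6 arrays fitted alone included both heavy chain oligos (adjusted p = 0.000752 and 0.0119), the kappa constant (0.00639) and Olfr339 (0.0482).

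**Figure D2:**
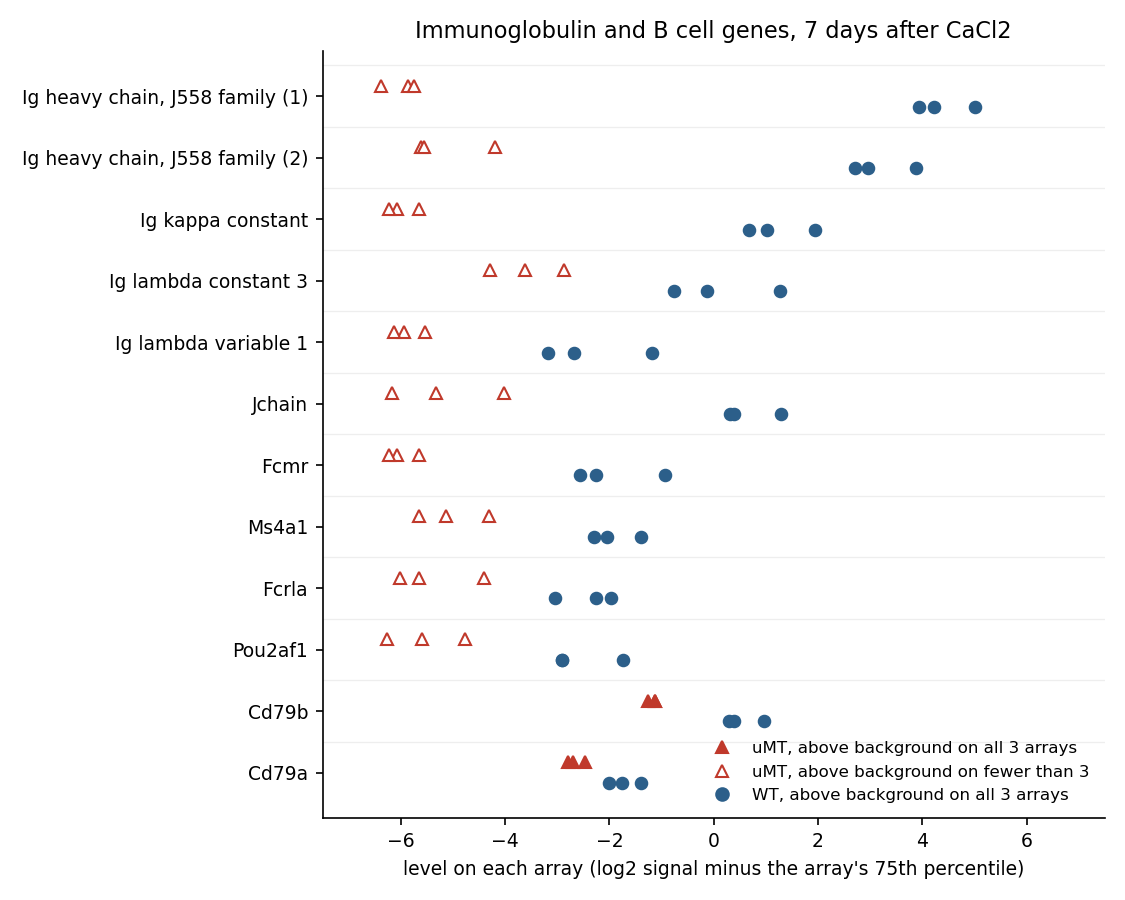
Level of each named immunoglobulin oligo or B cell gene on each array (x axis, log2 signal minus the array's 75th percentile). Triangles are uMT arrays, filled where the gene was above background on all 3 of them, and circles are WT arrays. No gene shown has an overlap between uMT and WT, and the gap is widest for the heavy chain oligos. The files describe these as J558 family, a name that does not show that variable segments were what fell.

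Genes of B cells followed. Of 16 measured genes of B cell identity, 0 rose and 7 fell, by -1.43 to -3.12, and the list's median difference was -1.61. In 14 of the 16 every uMT array lay below every WT array, and 7 were above background on no uMT array. The other 2 had a positive difference, and in 1 of them every uMT array lay above every WT array. Ms4a1, which encodes the surface protein CD20, read -4.31, -5.66 and -5.13 in uMT, against -2.04, -2.29 and -1.39 in WT. It was at least 3.69-fold lower (adjusted p = 0.0468). Genes of this list were dim in WT too, so the bounds are low. In this RNA of whole aortas, fewer B cells and less RNA per B cell cannot be told apart.

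Pou2af1, a transcriptional coactivator of B cells, read -5.59, -6.26 and -4.76 in uMT and -2.91, -2.90 and -1.73 in WT and was at least 2.42-fold lower (adjusted p = 0.0126). Fcrla, an Fc receptor-like protein of B cells, read -4.41, -6.02 and -5.66 in uMT and -3.04, -2.25 and -1.98 in WT and was at least 2.58-fold lower (adjusted p = 0.00899). Ly6d, an early marker of B lineage commitment, read -1.78, -4.00 and -3.27 in uMT and -1.21, -0.37 and 0.34 in WT, a difference of -2.60 ± 0.66 (adjusted p = 0.0451). The signal chains of the B cell receptor missed the threshold. Cd79b read -1.13, -1.13 and -1.26 in uMT and 0.29, 0.39 and 0.96 in WT, a difference of -1.72 ± 0.52 (adjusted p = 0.0792). Cd79a read -2.79, -2.47 and -2.71 in uMT and -2.01, -1.76 and -1.39 in WT (difference -0.94 ± 0.30, adjusted p = 0.0907), without overlap in either gene. A dimmer second Cd79a oligo gave 0.00 and was above background on no uMT array.

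Outside that list, Fcmr, the receptor for the Fc part of IgM, read -6.08, -6.23 and -5.65 in uMT and -2.56, -2.25 and -0.94 in WT. It was at least 3.67-fold lower (adjusted p = 0.00924). Jchain, which encodes the J chain, read -6.16, -5.33 and -4.02 in uMT and 0.38, 0.31 and 1.29 in WT and was at least 21.9-fold lower (adjusted p = 0.00924). It was the 1 gene that passed among 11 of plasma cells and antibody secretion, whose median difference was -0.45 (-0.72 without uMT replicate 2). Without uMT replicate 1, 3 of the 11 fell. Xbp1, a factor of secretory cells that other cell types use as well, read 5.99, 5.57 and 5.33 in uMT and 5.45, 5.63 and 6.02 in WT (difference -0.07 ± 0.22). Tnfrsf13c, the receptor for the B cell survival factor BAFF, was at least 1.35-fold lower (adjusted p = 0.0329), and the ligand Tnfsf13b differed by -1.08 ± 0.40 (adjusted p = 0.135).

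The mean level of the B cell identity list was -2.64, -3.22 and -2.82 on the uMT CaCl2 arrays and -1.59, -1.36 and -1.01 on the WT CaCl2 arrays. Here all 3 uMT replicates stood together and below WT, replicate 1 included. The call of single genes was less stable, with 1 rise and 8 falls in the list without uMT replicate 1. There were 3 falls in the fit to all 30 arrays and 1 in the 6 arrays alone. Without WT replicate 1, 2 or 3 the falls numbered 4, 1 and 0.

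Other lymphocyte genes differed less. Of 18 T and NK cell genes, 0 rose and 1 fell (4 fell without uMT replicate 1), with a median of -0.80 and 11 without overlap and lower in uMT. The gene that fell was Klrb1c, which encodes the NK cell receptor NK1.1, at -3.76, -6.03 and -4.62 in uMT and -3.01, -2.82 and -2.33 in WT, at least 2.04-fold lower (adjusted p = 0.0381). A dimmer second Klrb1c oligo gave -0.97 ± 0.63 (adjusted p over probes 0.405), with overlap between the groups. That oligo was above background on no uMT array and 1 WT array. Cd3e, a chain of the T cell receptor complex, read 2.50, 1.48 and 2.31 in uMT, against 1.67, 1.89 and 1.75 in WT (difference 0.33 ± 0.45, adjusted p = 0.721). Cd4, the co-receptor of helper T cells, read 2.57, 2.54 and 2.42 in uMT and 2.54, 2.53 and 2.67 in WT. Among 8 lymph node and lymphatic genes none passed (4 fell without uMT replicate 1), and their median was -1.06.

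Fc receptors and the Syk pathway tended to lower values in uMT, but replicate 1 stood apart. All 17 measured genes of that list had a negative difference, the median was -1.33 and 8 had no overlap, while 0 rose and 1 fell. The gene that fell was Fcgr4, an activating IgG receptor, at 1.69, 0.65 and -0.05 in uMT and 2.24, 2.32 and 2.81 in WT (difference -1.70 ± 0.43, adjusted p = 0.0468). Syk itself read 3.57, 2.46 and 1.45 in uMT and 3.31, 3.94 and 3.77 in WT. Its difference of -1.18 ± 0.36 did not pass (adjusted p = 0.0815), and uMT replicate 1 lay inside the WT range. Without that replicate Syk fell by 1.71 (adjusted p = 0.00178) and 16 of the 17 genes fell. No gene of the list was called when any other compared array was left out.

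Other members of the pathway had the same layout. Tyrobp, an adaptor that recruits Syk, read 6.22, 4.79 and 4.0 in uMT and 6.55, 7.16 and 7.16 in WT (difference -1.95 ± 0.55, adjusted p = 0.0629). Fcer1g, the common gamma chain of Fc receptors, read 6.26, 4.67 and 4.14 in uMT and 5.58, 6.08 and 6.33 in WT (difference -0.97 ± 0.43, adjusted p = 0.205). The groups were apart for Tyrobp and overlapped for Fcer1g. Blnk, a Syk substrate of B cells and macrophages, differed by -1.52 ± 0.46 (adjusted p = 0.0769), and Clec7a, a fungal glucan receptor that signals through Syk, by -2.06 ± 0.70 (adjusted p = 0.108). Btk, a kinase downstream of Syk, read 0.45, -1.01 and -1.49 in uMT and 0.49, 1.17 and 0.92 in WT (difference -1.54 ± 0.65, adjusted p = 0.182). Replicate 1 was the highest uMT array for each of these genes that is given array by array.

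Macrophage genes had lower medians with few calls. Of 14 common macrophage genes, 0 rose and 1 fell, with a median of -1.18. Without uMT replicate 1, 2 rose and 8 fell, and without replicate 3 the median was -0.76. Msr1, the class A scavenger receptor, was the gene that fell, at -0.10, -1.53 and -1.96 in uMT and 0.10, 1.0 and 0.67 in WT (difference -1.79 ± 0.43, adjusted p = 0.0385). Ctsl, a lysosomal cysteine protease that macrophages hold in quantity, was the 1 gene that passed among 14 Adamts proteases and cathepsins. It read 7.62, 6.63 and 6.03 in uMT and 7.98, 8.49 and 8.27 in WT, a difference of -1.49 ± 0.35 (adjusted p = 0.0335). In the fit to all 30 arrays it did not pass (adjusted p = 0.419, limma). Without uMT replicate 1, 3 of those 14 genes rose and 5 fell. None of 11 genes of recruited and lipid-associated macrophages passed, although their median was -1.75. Gpnmb, a glycoprotein of foamy macrophages, read 5.34, 4.05 and 2.36 in uMT and 5.85, 6.54 and 5.97 in WT (difference -2.20 ± 0.65, adjusted p = 0.0747). Spp1, which encodes osteopontin, read 6.40, 3.24 and 1.63 in uMT and 6.23, 6.70 and 7.16 in WT (difference -2.94 ± 1.13, adjusted p = 0.147). For Spp1 uMT replicate 1 lay among the WT arrays and the other replicates far below them. Without that replicate 6 of the 11 recruited macrophage genes fell, and without replicate 3 the median was -1.09. None of 11 genes of resident adventitial macrophages passed, and their median of -0.69 rested on uMT replicate 3, since it was -0.03 without that array. Leaving out uMT replicate 1 gave 2 rises and 2 falls in this list.

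Neutrophil genes and the chemokines that attract neutrophils split the uMT group. The mean level of 13 neutrophil genes was 0.42, -2.05 and -1.41 on the uMT arrays and 0.02, 0.04 and 0.84 on the WT arrays, and none of the genes passed. Their median was -1.22, and without uMT replicate 1 it was -2.31 with 7 falls. S100a8, which encodes a calgranulin of neutrophils, read 2.40, -1.74 and -0.87 in uMT and 1.63, 1.95 and 3.31 in WT (difference -2.37 ± 1.14, adjusted p = 0.242). Replicate 1 of uMT lay inside the WT range and replicates 2 and 3 below it. Of 5 neutrophil-attracting chemokines none passed, with a median of -1.42, and without uMT replicate 1 it was -2.23 with 2 falls. Cxcl5, one of them, read 1.47, -2.11 and -1.96 in uMT and 1.44, 0.82 and 2.82 in WT (difference -2.56 ± 0.85, adjusted p = 0.101).

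Cytokines behaved likewise. Il1b, which encodes interleukin 1 beta, read 1.36, -2.34 and -1.15 in uMT and 1.44, 0.76 and 2.34 in WT (difference -2.22 ± 0.82, adjusted p = 0.132). Il6, which encodes interleukin 6, read 1.93, -2.53 and -2.18 in uMT and 1.21, -0.48 and 2.06 in WT (difference -1.85 ± 1.09, adjusted p = 0.347). Ccl2, the main monocyte chemoattractant, read 3.19, 1.13 and 1.18 in uMT and 3.28, 2.73 and 3.47 in WT (difference -1.33 ± 0.70, adjusted p = 0.289). In all 3 genes uMT replicate 1 lay inside the WT range. Without it Il1b fell by 3.26 (adjusted p = 0.00826) and Il6 by 3.28 (adjusted p = 0.0345), while Ccl2 did not pass (difference -2.0, adjusted p = 0.067). None of the 16 interleukins and inflammatory cytokines passed with all replicates, and 10 fell without uMT replicate 1. None was called when any other compared array was left out. Retnla, a product of alternatively activated macrophages, had no order by replicate, at -5.99, 2.16 and -3.19 in uMT and 0.29, 0.79 and -0.20 in WT (difference -2.64 ± 1.12, adjusted p = 0.183).

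The mean level of dendritic cell and MHC class II genes was 1.31, 0.89 and 0.82 in uMT and 1.89, 1.95 and 2.13 in WT. In 9 of 11 dendritic cell and MHC class II genes every uMT array lay below every WT array, the median was -0.98, and 0 rose and 1 fell (5 fell without uMT replicate 1). That gene was H2-Aa, which encodes an MHC class II alpha chain. It read 2.78, 2.70 and 2.51 in uMT and 3.86, 3.95 and 4.29 in WT, a difference of -1.37 ± 0.33 (adjusted p = 0.0367), and the uMT replicates differed little among themselves. H2-Ab1, the beta chain that pairs with it, read 6.27, 5.81 and 5.73 in uMT and 6.79, 6.69 and 7.05 in WT (difference -0.91 ± 0.36, adjusted p = 0.16). These genes serve B cells, macrophages and dendritic cells alike, and the part of each cell type was not tested.

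Of 20 interferon-induced genes all had a negative difference, with a median of -0.97, and 11 had no overlap. The adjusted p called 0 higher and 2 lower, and without uMT replicate 1 it called 10 lower. The mean level of the list was 1.55, 1.24 and -0.29 in uMT and 1.89, 1.77 and 2.07 in WT, and without uMT replicate 3, the lowest array, the median was -0.46. Zbp1, a sensor of nucleic acids, read 0.58, -0.05 and -1.01 in uMT and 1.73, 1.01 and 2.06 in WT (difference -1.76 ± 0.43, adjusted p = 0.0388). Xaf1, a proapoptotic interferon target, read 2.19, 1.89 and 1.53 in uMT and 2.90, 2.87 and 2.84 in WT (difference -1.0 ± 0.26, adjusted p = 0.0468). Of 16 complement genes none passed, with a median of -0.58, and 4 fell without uMT replicate 1.

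**Figure D3:**
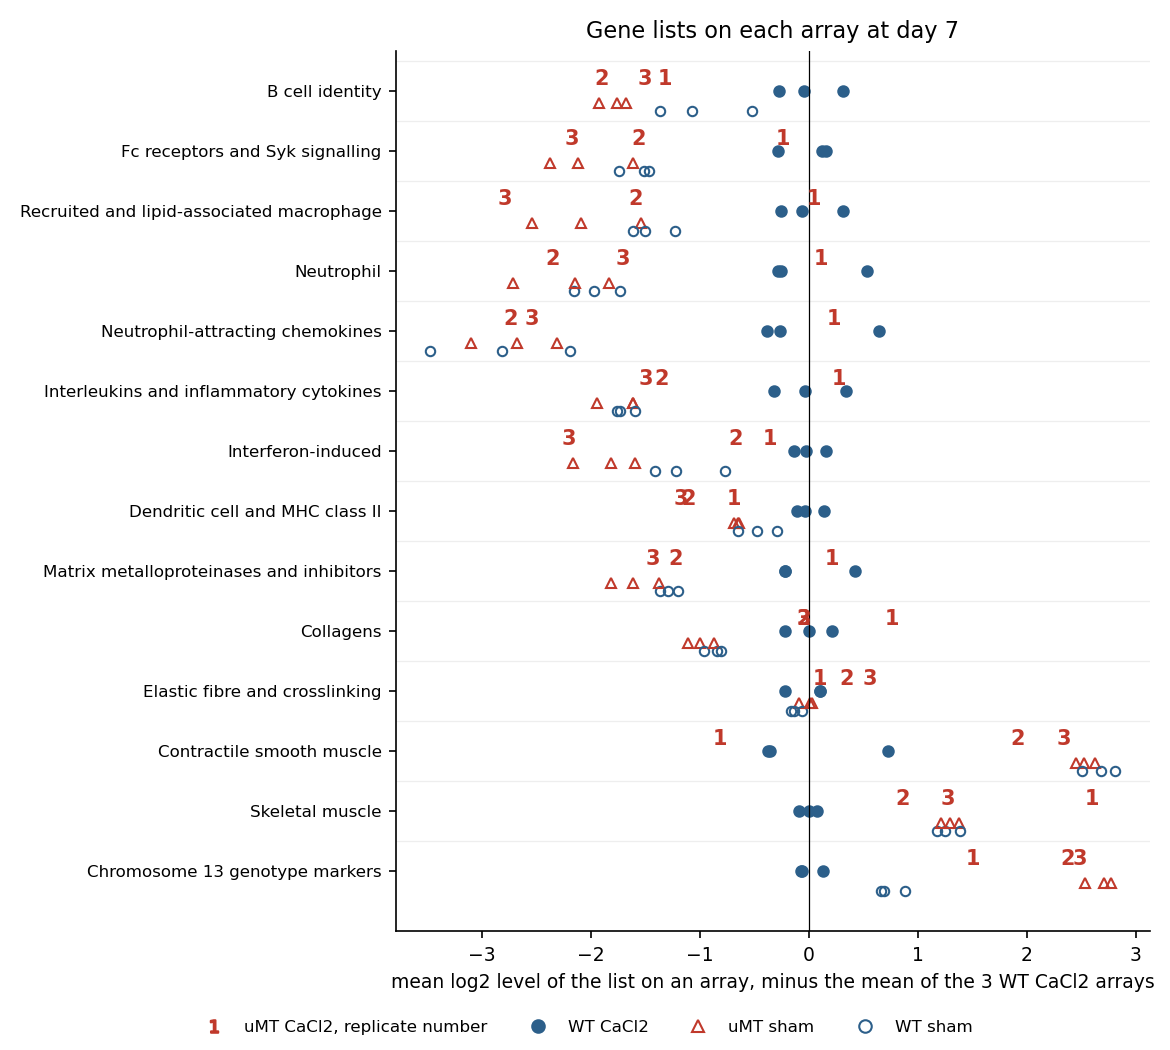
Mean log2 level of each gene list on each day 7 array, minus the mean of the 3 WT CaCl2 arrays, so that 0 is the WT CaCl2 mean. Red digits are the uMT CaCl2 replicates, filled circles WT CaCl2, open triangles uMT sham and open circles WT sham. For the neutrophil, neutrophil-attracting chemokine, interleukin and Fc receptor lists, replicate 1 of uMT lies near WT CaCl2 and replicates 2 and 3 near sham. For interferon-induced genes replicate 2 also lies nearer to WT CaCl2, and for dendritic cell and MHC class II genes replicate 1 lies nearer to sham. For B cell identity all 3 lie together.

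Contractile smooth muscle genes divided the uMT group with the sign turned. All 18 measured had a positive difference with a median of 1.08, yet none passed and none was free of overlap. Acta2, smooth muscle actin, read 7.13, 9.34 and 9.99 in uMT and 8.21, 7.04 and 7.30 in WT (difference 1.30 ± 0.53, adjusted p = 0.168). Myh11, smooth muscle myosin heavy chain, read 2.75, 5.73 and 6.79 in uMT and 4.87, 3.65 and 3.34 in WT (difference 1.14 ± 0.63, adjusted p = 0.313). Replicate 1 of uMT was the lowest of the 6 arrays for Myh11 and lay inside the WT range for Acta2, and uMT replicates 2 and 3 were the highest for both. The mean level of the list was 1.90, 4.63 and 5.05 in uMT CaCl2 and 3.43, 2.34 and 2.35 in WT CaCl2, beside 5.16 to 5.53 in the 6 sham arrays of day 7. Without uMT replicate 1 the list had a median of 2.14, 17 rises and 0 falls, with Acta2 at 2.15 (adjusted p = 0.0032) and Myh11 at 2.31 (adjusted p = 0.0019). No gene of the list was called when any other compared array was left out.

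Eln, which encodes elastin, read 3.54, 5.23 and 6.05 in uMT and 3.51, 2.90 and 3.32 in WT. The arrays did not overlap, but the difference of 1.70 ± 0.72 did not pass (adjusted p = 0.184), and it was 2.40 without uMT replicate 1 (adjusted p = 0.0343). None of 20 elastic fibre and crosslinking genes passed, and their median was 0.31. With uMT replicate 1 left out, 5 of them rose and 1 fell. None of 19 collagens passed either, with a median of 0.27, and uMT replicate 1 had their highest mean level (5.43, 4.62 and 4.62 in uMT against 4.67, 4.44 and 4.88 in WT). In the sham arrays of day 7 that mean level ran from 3.56 to 3.86. Without uMT replicate 1 the median of the collagens was 0.11, with 1 rise and 1 fall. Col1a1, which encodes a chain of type I collagen, read 8.37, 8.30 and 8.65 in uMT and 8.25, 8.40 and 8.09 in WT (difference 0.20 ± 0.25, adjusted p = 0.694). Col6a1, which encodes a chain of type VI collagen, read 8.06, 7.27 and 7.23 in uMT and 6.86, 6.43 and 6.93 in WT (difference 0.78 ± 0.26, adjusted p = 0.0999).

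No matrix metalloproteinase or inhibitor passed among 13 measured, and their median was -0.63. Without uMT replicate 1, 1 rose and 5 fell, and without replicate 3 the median was -0.31. No gene of the list was called when any compared array other than uMT replicate 1 was left out. Mmp9, a gelatinase of leukocytes, read 1.96, -5.24 and -5.05 in uMT and -1.13, -0.58 and 2.48 in WT (difference -3.03 ± 1.39, adjusted p = 0.218). Mmp13, a collagenase, read 2.62, -3.78 and -4.83 in uMT and 0.63, 0.17 and 3.69 in WT (difference -3.49 ± 1.21, adjusted p = 0.111). In both, uMT replicate 1 lay within the WT range and the other uMT arrays well below it. Without that replicate both passed as lower in uMT (adjusted p = 0.00279 for Mmp9 and 0.000402 for Mmp13). Mmp9 was above background on 1 uMT array and Mmp13 on 2, so the size of these falls is not given. Mmp2, a gelatinase made by fibroblasts and smooth muscle, read 4.39, 4.60 and 3.71 in uMT and 4.24, 3.72 and 4.68 in WT (difference 0.02 ± 0.31, adjusted p = 0.98). Of 14 adventitial fibroblast, 15 endothelial and 19 cell cycle genes none passed. Without uMT replicate 1, 2 adventitial fibroblast genes rose, 1 cell cycle gene fell and 0 endothelial genes were called.

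Skeletal muscle genes held the largest rises among the named genes. Of 10 measured, 3 rose and 0 fell, with a median of 1.26 and 6 without overlap in the higher direction. The median without uMT replicate 1 was 0.75, with 4 rises and 1 fall. Tnnc2, troponin C of fast skeletal muscle, read 3.45, 0.46 and 1.35 in uMT and -1.48, -1.58 and -2.19 in WT, a difference of 3.50 ± 0.49 (adjusted p = 0.0013). Vgll2, a cofactor of muscle transcription factors, read -2.55, -2.26 and -0.36 in uMT and -5.02, -4.22 and -6.21 in WT, where it was not above background, and was at least 7.49-fold higher (adjusted p = 0.0164). Mybpc2, a fast muscle myosin-binding protein, was at least 2.80-fold higher (adjusted p = 0.000663) and was above background on 2 of 3 uMT arrays and no WT array. Tnni2, fast skeletal troponin I, did not share this, at 3.72, -0.47 and -0.42 in uMT and 0.49, 1.04 and 1.03 in WT (difference 0.09 ± 0.65, adjusted p = 0.955).

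The list's mean level was 0.02, -1.71 and -1.29 in uMT CaCl2 and -2.49, -2.57 and -2.66 in WT CaCl2. In the 6 sham arrays of day 7 it ran from -1.40 to -1.19, so that uMT replicate 1 stood above and the WT CaCl2 arrays below the sham arrays of both genotypes. Such genes mark muscle beside the aorta, and how much of it each dissection carried was not tested. The 3 rises were also 3 in the fit to all 30 arrays, and 0 in the 6 arrays alone.

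A list of 3 chromosome 13 markers was chosen because earlier results of these arrays had shown them. All 3 passed as higher in uMT by the oligo that stood for the gene, but a second Arsk oligo went the other way. Nnt, a mitochondrial proton pump that makes NADPH and is known to carry a deletion in the C57BL/6J substrain, was the gene with the smallest p. It read 3.61, 3.68 and 3.90 in uMT and 2.02, 1.79 and 1.91 in WT, a difference of 1.83 ± 0.14 (adjusted p = 3.52e-07). Map1b, a microtubule-associated protein of neurons, read 1.71, 3.76 and 4.19 in uMT and 0.60, -0.03 and -0.03 in WT, a difference of 3.04 ± 0.46 (adjusted p = 0.00307). For Arsk, a lysosomal sulfatase, this oligo read -0.07, 0.42 and 0.09 in uMT and -1.49, -1.25 and -1.34 in WT, a difference of 1.51 ± 0.18 (adjusted p = 0.000327). For Nnt and Arsk the replicates of each group lay close together.

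For Arsk and Nnt a second oligo gave another answer, and both oligos of each gene are shown because the result depends on which is read (mm9, all on the minus strand of chromosome 13, 60 bases each).
Arsk oligo A (chr13:76199926-76199985): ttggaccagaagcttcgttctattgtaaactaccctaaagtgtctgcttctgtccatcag
Arsk oligo B (chr13:76198809-76198868): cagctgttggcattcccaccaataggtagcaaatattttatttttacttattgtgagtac
Nnt oligo A (chr13:120124335-120124394): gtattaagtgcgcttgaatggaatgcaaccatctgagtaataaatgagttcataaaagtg
Nnt oligo B (chr13:120142585-120142644): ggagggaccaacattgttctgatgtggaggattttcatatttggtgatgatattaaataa
The values above are those of the A oligos, which stood for the genes because they were the brighter over all arrays. In the WT CaCl2 arrays Arsk oligo B was the brighter, so the choice of oligo is not independent of the group difference. Arsk oligo B, 1057 bases from oligo A, read -4.08, -3.14 and -3.06 in uMT and -0.24, 0.07 and -0.37 in WT, a difference of -3.25 ± 0.28 in the opposite direction. Nnt oligo B, 18190 bases from oligo A, was dim and gave -0.10 ± 0.34. The Arsk oligos thus disagree by sign, and no single direction holds for that gene. A second Map1b oligo gave 1.51 ± 0.46, in the same direction, with an adjusted p over probes of 0.0787.

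Among the other large rises, Vipr2, a receptor for vasoactive intestinal peptide found on smooth muscle, had narrow groups. It read 0.86, 0.98 and 0.41 in uMT and -0.93, -0.95 and -1.08 in WT, a difference of 1.73 ± 0.23 (adjusted p = 0.000663). Vipr2 did not pass in the fit to all 30 arrays (adjusted p = 0.218, limma) or to the 6 compared arrays alone (adjusted p = 0.16). Pkdcc, a secreted kinase of bone and lung development, read 3.83, 5.28 and 6.07 in uMT and 3.50, 3.22 and 2.98 in WT, a difference of 1.83 ± 0.39 (adjusted p = 0.0224). Adcy1, an adenylyl cyclase, was at least 3.02-fold higher (adjusted p = 0.0199). Dgkk, a diacylglycerol kinase, rose by 1.88 ± 0.34 (adjusted p = 0.00924). Erdr1 rose by 1.76 (adjusted p = 0.0365), Tmem184a by 1.62 (adjusted p = 0.0423) and Ccdc85a by 1.59 (adjusted p = 0.0454).

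The largest falls among named genes held B cell genes and a mixed remainder. Olfr339, which encodes an olfactory receptor, read -5.97, -6.15 and -5.55 in uMT and -3.45, -3.07 and -3.12 in WT. It was at least 1.49-fold lower (adjusted p = 1.74e-05) and was above background on no uMT array. Its uMT values lay near those of Duoxa2, above background in neither group, at -6.00, -6.17 and -5.58 on the same arrays. The small uMT spread is thus that of the scanner's value for dim spots, so the small p does not show a precise fall. Klra8, an NK cell receptor of a family of near-identical genes that one oligo may not tell apart, read -1.94, -2.83 and -4.52 in uMT and -0.31, -0.29 and -0.11 in WT, a difference of -2.86 ± 0.55 (adjusted p = 0.0143). In unoperated aortas Klra8 was called in the other direction, higher in uMT (adjusted p = 0.0168). There it was above background on 2 uMT arrays and no WT array. Dhrs9, a retinol dehydrogenase, read -0.80, -2.82 and -4.63 in uMT and -0.52, 0.31 and 0.41 in WT, a difference of -2.82 ± 0.69 (adjusted p = 0.0412). In Klra8 and Dhrs9 uMT replicate 1 was nearest to WT and replicate 3 farthest. Gm14461 fell by 2.85 (adjusted p = 0.0367), and Dpep3, a membrane dipeptidase, by 2.54 (adjusted p = 0.0283).

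Over all 36 lists, 437 distinct genes were measured, 6 were higher and 16 were lower, and 25 lists had no called member. Of the 460 called genes, uMT replicate 1 was the uMT array nearest to the WT mean in 307, replicate 2 in 81 and replicate 3 in 72. Over all genes the shares were 45.3%, 33.4% and 21.4%. Of the 315 genes lower in uMT, 170 were above background on all 3 uMT arrays and 79 on none.

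The same genotype difference was measured in other arrays of the series, none of them shared with day 7 after CaCl2. At day 42 after CaCl2, 15.4% of all genes were called (4.67% higher, 10.7% lower). Of the 145 genes higher at day 7, 133 had a positive difference at day 42 and 42 were called higher. Of the 315 lower genes, 275 had a negative difference there and 117 were called lower. Over all genes, 46.5% were positive and 53.5% negative at day 42. The CaCl2 arrays of both days shared a slide within each genotype, so a slide offset would repeat in this count and its part was not tested.

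In sham aortas at day 7 the genotypes differed in 5 genes (0.0215%), of which 4 were higher (0.0172%) and 1 was lower (0.00430%) in uMT. Of the 145 higher genes 62.1% were positive there, against 54.5% of all genes, and 2 were called higher. Of the 315 lower genes 62.9% were negative, against 45.5% of all genes, and 0 were called lower. In unoperated aortas, where 6.89% of genes were called (5.55% higher, 1.34% lower), 53.1% of the 145 were positive, against 58.8% of all genes, and 27.6% of the 315 were negative, against 41.2% of all genes. There 8 of the 145 were called higher, and of the 315, 3 were called lower and 34 higher. In sham aortas at day 42, where 33.3% were called (14.6% higher, 18.7% lower), 73.8% of the 145 were positive, against 49.1% of all genes, and 69.2% of the 315 were negative, against 50.9% of all genes. Nnt differed by 1.56, 1.57, 1.60 and 1.42 in unoperated, sham day 7, sham day 42 and CaCl2 day 42 aortas, and passed in each. Map1b differed by 1.80, 2.23, 2.23 and 2.52 and passed in all but sham day 7 (adjusted p = 0.158). Tnnc2 differed by 0.44, 0.42, -0.04 and 0.28, and passed in none.

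B cell transcripts had other levels in WT at other times. The first heavy chain oligo had a mean of -6.95 in uMT and -0.63 in WT in sham aortas at day 7. At day 42 after CaCl2 its means were -3.68 in uMT, where 1 array was above background, and 8.70 in WT (adjusted p = 4.51e-05). At that time Jchain had means of -5.03 in uMT and 5.52 in WT (adjusted p = 3.37e-06), and Ms4a1 had -4.80 in uMT and -1.57 in WT (adjusted p = 0.0116). Neither was above background on any uMT array, so the size of these falls is not given. In unoperated aortas Ms4a1 and Jchain did not pass.

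**Figure D4:**
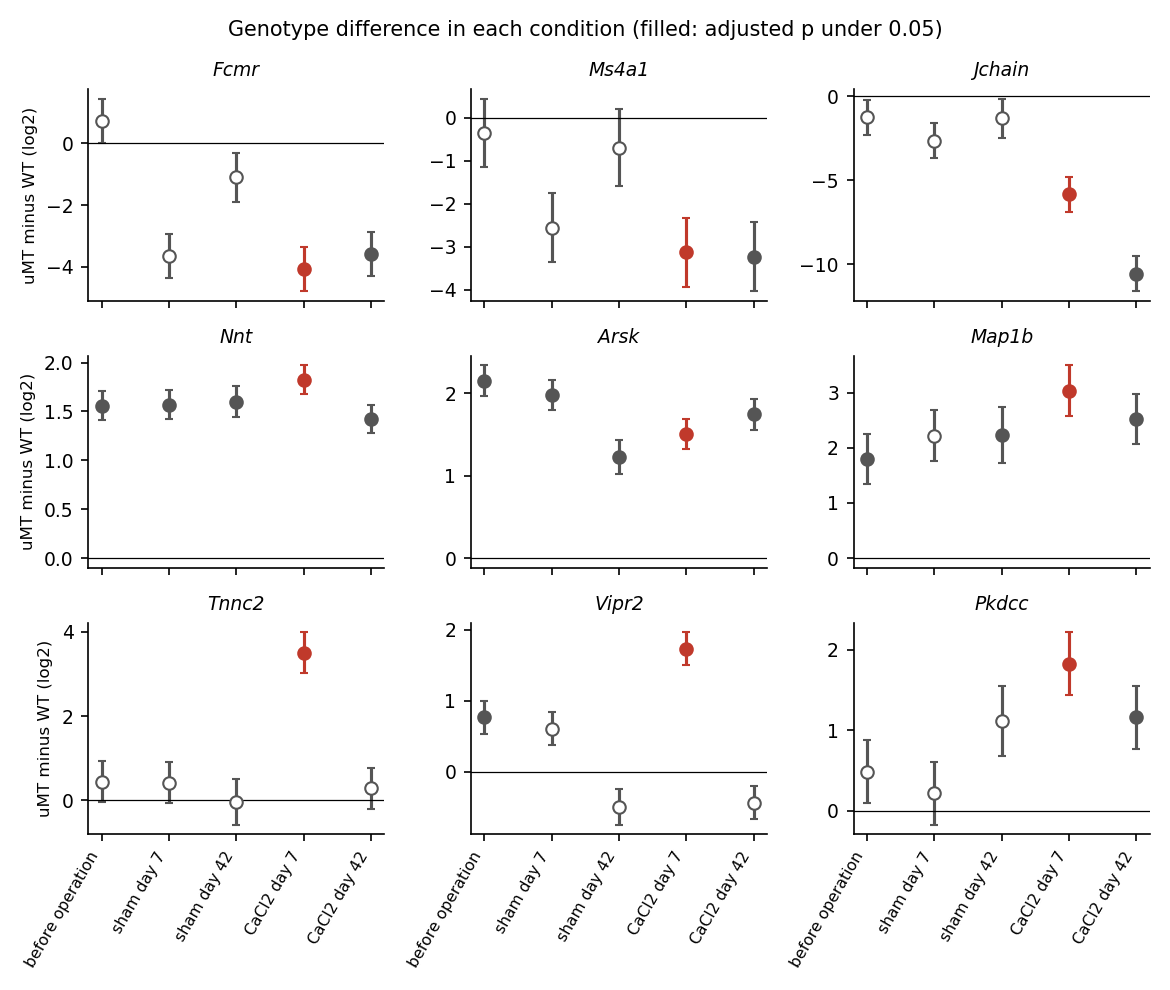
Difference uMT minus WT (y axis, log2, bars 1 standard error, n = 3 arrays per group, 2 in WT sham day 42) in each condition for 9 named genes, with the CaCl2 day 7 value in red and filled circles for an adjusted p under 0.05. Nnt and oligo A of Arsk are called in all 5 conditions, and Tnnc2 at day 7 after CaCl2 alone. Arsk oligo B is not drawn, and for Fcmr, Ms4a1 and Jchain, not above background in uMT, the difference uses the scanner's value for dim spots.

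Whether the genotype difference itself was other after CaCl2 than after saline was tested as an interaction at day 7. None of the 23266 genes passed (0%), with 2188 at an unadjusted p under 0.05, so the falls above are not shown to be particular to CaCl2. Between day 7 and day 42 after CaCl2, a contrast in which a slide offset cancels, 10 genes passed (0.0430%). In 9 (0.0387%) the contrast was positive and in 1 (0.00430%) negative. Vipr2 was among the positive ones, with a difference of 1.73 at day 7 and -0.44 at day 42, a contrast of 2.17 (adjusted p = 0.0146). Ccrl2, an atypical chemokine receptor, was the negative one, with -0.96 at day 7 and 0.56 at day 42, a contrast of -1.51 (adjusted p = 0.0339).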

How the data were processed

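The authors deposited the scanner output of each array, and per the file headers the processed signal is a background-subtracted intensity from Feature Extraction 10.7.1.1 (9.5.1.1 per the submitters' processing notes). Their deposited matrix of processed values, also intensity on a linear scale, was used as an alternative. Coordinates are mm9. Spots of a probe were averaged, 24 flagged probes were dropped and 55657 kept. The log2 of the deposited intensity was centred on the 75th percentile of each array. Probes well above background on all 3 arrays of at least 1 group (33228) entered, and the brightest stood for a gene name. For 27311 probes the gene name was found in RefSeq by accession, for 3523 by symbol and for 551 by synonym, while 24272 kept the name in the file.

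Differences were fitted with limma 3.58.1 in R 4.3.3 on 29 arrays, with 1 mean per group (19 residual degrees of freedom) and Benjamini-Hochberg adjustment. WT sham day 42 replicate 2 was left out: it was alone on its slide and scan day, with 36.6% of probes above background. The script was tested on simulated data. The genes, lists and tests were chosen with earlier results of these data known. Named were the 12 largest called rises and 12 largest called falls with a RefSeq symbol, the higher group above background and no overlap, a fixed set of genes, up to 5 members of each list (called ones first, then by level), the 5 largest immunoglobulin features, the mu constant feature as the targeted gene, and up to 5 genes per direction in the interactions. A few genes named by it are not reported here. Second probes of named genes were chosen after their values were seen. A permutation test of 3 against 3 has 10 distinct splits and cannot give p below 0.1, so none was run. The records name both an RNeasy and an SV Total kit for the RNA. The number of arrays limits the precision.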

Additional observations from a re-analysis of the deposited data

Results flagged for a closer look

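In 10 features the genotype difference after CaCl2 at day 7 minus that at day 42 passed the adjusted p in limma, the number of arrays being 3 per group and day. The values are log2. The feature described as the immunoglobulin heavy chain gamma polypeptide had a contrast of 5.16 (adjusted p = 0.0339), with a difference of -0.84 at day 7 and -6.00 at day 42. It was above background on no uMT array of either day, so this contrast rests on the scanner's value for dim spots. Its mean was -4.92 in uMT and -4.08 in WT at day 7, against -4.96 in uMT and 1.04 in WT at day 42. The feature described as cDNA sequence AB069917 had 4.51 (adjusted p = 0.0146), predicted gene Gm16683 had 3.61 (adjusted p = 0.0381) and predicted gene Gm16792 had 3.22 (adjusted p = 0.0339). All 3 lie on chromosome 12, the RefSeq table gives all of them as heavy chain V segments, none was above background in uMT on either day, and at day 7 predicted gene Gm16792 alone was above background in WT, so their contrasts rest on such values too. A kappa chain variable feature of family 4 had 3.06 (adjusted p = 0.0351), with -0.82 at day 7 and -3.88 at day 42. A lincRNA on chromosome 9 had 3.27 (adjusted p = 0.0168), with -0.81 at day 7 and -4.08 at day 42, and was above background on all 12 arrays.

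Duoxa2, the maturation factor of a dual oxidase, had 2.74 (adjusted p = 0.0382), but it was above background in neither group at day 7 and on no uMT array at day 42. Vipr2 had 2.17 (adjusted p = 0.0146), and its means were 0.75 in uMT and -0.99 in WT at day 7, against 0.87 in uMT and 1.31 in WT at day 42. Phgdh, which opens serine synthesis, had 1.39 (adjusted p = 0.0351), with 0.50 at day 7 and -0.90 at day 42. Ccrl2 had -1.51 (adjusted p = 0.0339), with means of -1.05 in uMT and -0.09 in WT at day 7, against 0.08 in uMT and -0.48 in WT at day 42. With all 30 arrays in the fit 0 features passed this contrast.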

How the results depend on the processing

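The count of 460 calls became 873 with normexp (offset 50) and quantile normalization, 151 with no filter, 24 in the 12 CaCl2 arrays alone, 6 in the 6 compared arrays alone, 51 with all 30 arrays, 4652 with array weights and 1871 with slide as a random block (consensus correlation -0.0686). It stayed within 1.5 times under quantile normalization (324), the authors' matrix (321), another percentile (546), a filter on the compared groups (482) and the mean of probes (514). Leaving out 1 replicate gave 12 to 3672. The interaction with sham at day 7, 0 in the fit, gave 21 with the other percentile, 1 with the filter on the compared groups, 1 with the mean of probes, 16 in the 12 day 7 arrays alone, 1999 with array weights, 47 with slide as a random block, and 0 to 679 without 1 replicate. The contrast of day 7 with day 42, 10 in the fit, gave 93 with normexp, 59 with quantile, 54 with the authors' matrix, 4 with no filter, 0 with all 30 arrays, 0 in the CaCl2 arrays alone under either setting, 4422 with array weights, 5 with slide as a fixed block, and 0 to 1127 without 1 replicate. With the replicate number as a block the 3 counts were 266, 2 and 3, but same-numbered arrays deviated in opposite directions (r = -0.500, -0.179 and -0.450), so the numbers do not pair samples. Slide could not be fitted as a fixed block for the genotype difference.

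Of 41 called genes followed over 19 alternatives, 2 passed in all (Olfr339 and heavy chain oligo 1), 22 with all 30 arrays, 5 in the 6 arrays alone and 41 with the slide block. Olfr339 and heavy chain oligo 1 were above background on no uMT array. The difference of Olfr339 ran from -2.87 to -0.51 over the alternatives. The slide block cannot separate slide from genotype, and its correlation was negative, so it is no check on an effect of slide. Signs turned for Arsk with the mean of its probes (-0.87), Duoxa2 with quantile normalization (-0.011) and the authors' matrix (-0.013), Retnla with array weights (0.13), and Mmp2 with the other percentile (-0.016) and without 1 replicate (-0.23 to 0.29). The causes were not tested. The count rests on a spread pooled over groups, and signal over background is lower on the uMT arrays, so falls of dim genes there are bounds.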
